A study of Rattus norvegicus with 28 samples.

Results

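The first day of formula feeding with hypoxic stress was set against the unfed state at birth in the terminal ileum of newborn rats, with 1 Affymetrix rat expression array per pup. The members are the 7 arrays, of 28 in the series, whose titles mark them as formula plus hypoxia on day 1 (3 arrays) or as unfed control on day 0 (4 arrays), and all 8740 probe sets that are not array controls. Pups of the tested regimen, here called formula plus hypoxia, were fed formula, were made hypoxic 3 times a day and were killed on day 1 of life. The 3 breast-fed pups of day 1, a further control used below, were killed at the same age and received neither formula nor hypoxia. The 4 unfed newborns were killed on day 0 before any feeding. Against the unfed newborns, the change covers a day of age, enteral feeding, formula and hypoxia together, and these cannot be told apart. The labels give no strain, litter or sex, and no group received formula without hypoxia or hypoxia without formula. They describe individual arrays of single pups, so the p-values below rest on the spread between pups. For limma that spread is pooled over all groups of the 28 arrays, and is not that of these 7 alone.

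Formula feeding with repeated hypoxia is a rodent model of necrotizing enterocolitis, an inflammatory necrosis of the bowel of preterm infants that mostly strikes the ileum. At birth the ileal epithelium passes abruptly from a glucose supply across the placenta to milk, which is rich in fat, and its enterocytes take up and oxidise fatty acids. The same epithelium meets its first bacteria and secretes mucins and antimicrobial proteins. Hypoxia acts on cells through the hypoxia-inducible factors, which raise glycolytic enzymes, and reactive oxygen species act through Nrf2, which raises the enzymes of glutathione synthesis.

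The deposited signals of the 7 arrays had been scaled alike, with trimmed means of 150.3 to 150.4 on formula plus hypoxia arrays and 150.2 to 150.5 on unfed arrays. Correlations of log2 signals between arrays were 0.905 to 0.943 among formula plus hypoxia pups, 0.880 to 0.957 among unfed newborns and 0.884 to 0.943 between the groups, so the groups did not separate as wholes. The 3′ to 5′ signal ratio of the actin controls, a sign of RNA degradation, was 1.26 to 4.17 on formula plus hypoxia arrays and 0.970 to 2.29 on unfed arrays, and formula plus hypoxia replicate 2 had the highest. Series records fall into 2 sets by accession number, of 19 and 9 arrays, here called accession runs. In the set of 9, the number of unfed replicate 2 stands apart from the others. Its title alone in the series carries an extra letter. All 3 formula plus hypoxia arrays and unfed replicate 1 are in the run of 19, and unfed replicates 2 to 4 are in the other, so run and group are largely confounded. Unfed replicate 1 carries the unfed control title, while its description says only that it came from newborn rats. The labelled tissue was checked against ileal enterocyte markers. On the array were 9 of the 10 markers (Vil1 was not on it), and all 9 passed the signal filter, with Fabp6, the ileal bile acid binding protein, at 744 to 1082 in formula plus hypoxia pups and at 538 to 862 in unfed newborns.

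Of 3185 genes tested, 13 differed between formula plus hypoxia on day 1 and the unfed state (limma, adjusted p under 0.05), which is 0.408% of the genes. Of these, 7 were higher (0.220%) and 6 were lower (0.188%), and in all 13 the signals of the 2 groups did not overlap. The 7 that rose were Lcn2, an antimicrobial iron-chelator binding protein, Capn3, Cpt1a, the gateway enzyme of mitochondrial fatty acid oxidation, Cgref1, Cd59b, Plcg2 and Gclm. The 6 that fell were Scd2, a fatty acid desaturase, Serpinh1, a collagen chaperone, Cbx5, Ivns1abp, Pde6d and Fdps, an enzyme of sterol synthesis. One further probe set, E00717UTR#1_s_at, for which the annotation used here gives no gene, rose 7.02-fold and had the smallest p of all probe sets.

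Small differences were far more common than calls. At an unadjusted p under 0.05, 318 genes (9.98%) passed, 168 of them higher (5.27%) and 150 lower (4.71%). In 247 genes (7.76%) the groups did not overlap, with all formula plus hypoxia arrays above all unfed arrays in 150 (4.71%) and below them in 97 (3.05%). More than 2-fold differences were found in 76 genes (2.39%), of which 27 were higher and 49 lower. The median log2 change over all genes was 0.05, with quartiles at -0.22 and 0.27, and the median standard error was 0.30. No gene had an adjusted p between 0.05 and 0.10.

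**Figure D1:**
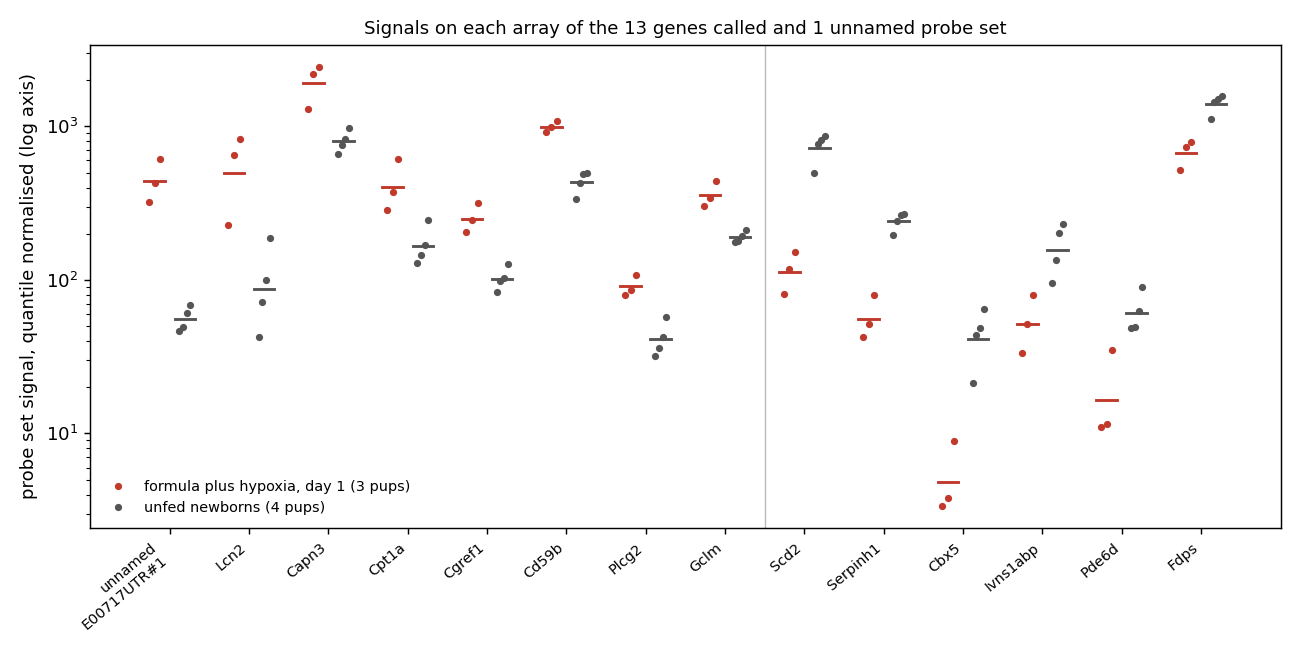
Quantile-normalised probe set signal (log axis) of the unnamed probe set and the 13 called genes on each of the 3 formula plus hypoxia arrays (red, left of each pair) and the 4 unfed arrays (grey, right), with bars at the geometric means. In every pair the dots of the 2 groups are separate, and the members left of the vertical line were higher under formula plus hypoxia.

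The count of 13 rests on few arrays. It was 8, 7 and 5 without formula plus hypoxia replicates 1, 2 and 3, and 14, 18, 3 and 4 without unfed replicates 1, 2, 3 and 4. With accession run as a term in the model it was 4, and within the run of 19 arrays, where unfed replicate 1 is the only unfed array and is assumed to vary like the other groups, limma called 0 genes, with 196 at an unadjusted p under 0.05. Scd2 and Serpinh1 were called when any single array of the 7 was left out. Cbx5 was called in the same way, except that without unfed replicate 4 its mean signal was below the filter and it was not tested. With run as a term these 3 genes and Cgref1 were called. Each of the 13 genes kept its direction in every alternative that gave it a value.

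The unnamed probe set E00717UTR#1_s_at gave signals of 323, 430.4 and 609 in formula plus hypoxia pups on day 1, against 68.5, 46.7, 60.8 and 49.3 in unfed newborns. All 3 formula plus hypoxia arrays lay far above all 4 unfed arrays. The increase was 7.02-fold (95% interval 4.93 to 10; log2 2.81 ± 0.25, standard error), with a limma adjusted p of 1.85e-07 over 5244 probe sets. On breast-fed arrays of day 1 the probe set gave 43, 87.5 and 52 and overlapped the unfed newborns, and the difference of formula plus hypoxia from them was 2.75 on the log2 scale (limma adjusted p = 1.09e-06).

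On day 2 of formula plus hypoxia the same probe set stood at 928, 596 and 561. On days 3 and 4 its signals were 59.1, 50.5, 55.9, 52.2, 64.9 and 35, as low as those of unfed newborns. The high signal was seen on the 6 arrays of days 1 and 2 of the regimen. The mean of days 2 to 4 differed from day 1 by -1.73 on the log2 scale (limma adjusted p = 0.000162). Its adjusted p against unfed was 4.09e-07, 4.47e-06 and 7.06e-06 without formula plus hypoxia replicates 1, 2 and 3, and the log2 change was 2.68 with accession run as a term (adjusted p = 1.51e-05) and 2.51 within the run of 19 arrays (adjusted p = 0.00512, with a single unfed array whose spread is taken from the other groups). Per probe set, 9 of 5244 were called (0.172%), 5 higher and 4 lower, and 7 of the 9 belong to genes called above. The ninth, a probe set of Hspa5, is described with the chaperones.

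**Figure D2:**
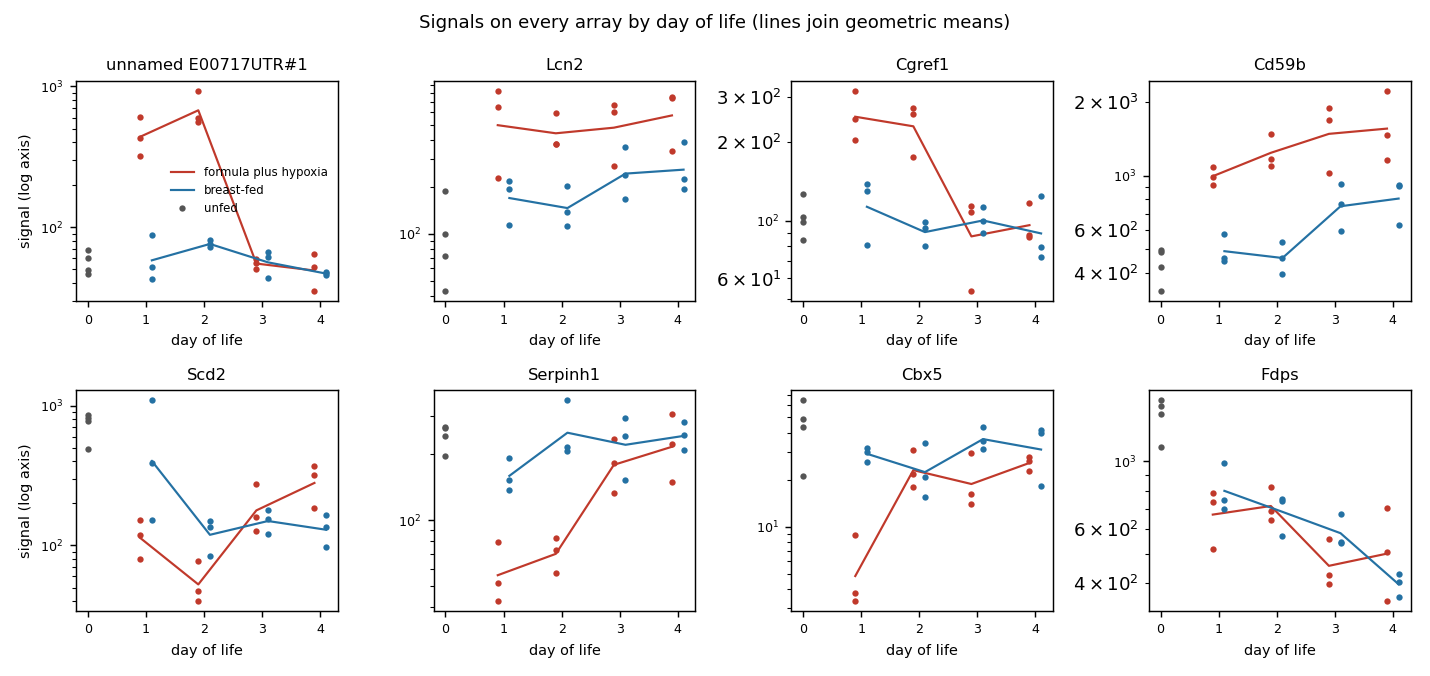
Signal (log axis) on every array against day of life for the unnamed probe set and 7 called genes, with formula plus hypoxia in red, breast-fed in blue and unfed newborns (day 0) in grey; lines join geometric means. The unnamed probe set and Cgref1 were high on days 1 and 2 of formula plus hypoxia and low on days 3 and 4, while Cd59b was higher under formula plus hypoxia than under breast feeding on every array of each day.

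Of the called genes, Scd2, Fdps and Cpt1a act in lipid metabolism. Scd2 had a small adjusted p, and Fdps and Cpt1a passed the threshold narrowly. Scd2 makes monounsaturated fatty acids from saturated ones, and its signals were 80.5, 118 and 153 in formula plus hypoxia pups, against 494, 773, 861 and 811 in unfed newborns. The highest formula plus hypoxia array was far below the lowest unfed array. Scd2 was 5.99-fold lower (95% interval 3.25 to 11; log2 -2.58; limma adjusted p = 0.0029), and its adjusted p with run as a term was 0.025. Within the run of 19 arrays the log2 change was -2.02 (adjusted p = 0.275). Breast-fed pups of day 1 were spread widely, at 1092, 153 and 390.4, and formula plus hypoxia did not differ from them at the threshold (log2 -1.77, adjusted p = 0.115). Without breast-fed replicate 2, the only one of the 3 outside the run of 19 arrays, that difference was -2.45 (adjusted p = 0.0165), and without breast-fed replicate 1 it was -1.06 (adjusted p = 0.732).

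Other probe sets of Scd2 differed among themselves. One that passed the filter gave a log2 change of -2.10 and another -0.14, and 3 below the filter gave -1.03, -0.07 and -2.17.

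Fdps makes farnesyl diphosphate, the branch point from which sterols and protein prenyl groups are built. It gave 738, 518 and 787 in formula plus hypoxia pups, against 1110.1, 1432, 1519 and 1580.1 in unfed newborns, with no overlap. The decrease was 2.07-fold (1.49 to 2.89; log2 -1.05; limma adjusted p = 0.0465), and both other probe sets of Fdps fell too, by 1.04 and 1.61 on the log2 scale. In breast-fed pups of day 1 Fdps gave 984, 697 and 749, so that Fdps differed little between the 2 fed groups (log2 -0.26, adjusted p = 0.818). Its call was lost without formula plus hypoxia replicates 1, 2 or 3 (adjusted p = 0.0911, 0.229 and 0.0954) and without unfed replicates 2, 3 or 4 (0.0539, 0.149 and 0.205). Of the 16 genes of cholesterol synthesis and uptake, Fdps was the only one called, 5 had a positive change and the list's median log2 change was -0.10. Mvk, which phosphorylates mevalonate earlier in the same pathway, was also lower in every formula plus hypoxia pup (mean signal 27.4, against 85.6 in unfed newborns) but was not called (log2 -1.51, adjusted p = 0.24).

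Cpt1a loads long-chain fatty acids onto carnitine for import into mitochondria. Its signals were 373, 615 and 287 in formula plus hypoxia pups and 145, 245, 168 and 128 in unfed newborns. The lowest formula plus hypoxia array was only a little above the highest unfed array. The increase was 2.36-fold (1.58 to 3.53; log2 1.24; limma adjusted p = 0.0497). Its call was lost without formula plus hypoxia replicates 1 or 2 (adjusted p = 0.104 and 0.237) and without unfed replicates 1, 3 or 4 (0.0942, 0.149 and 0.206). Within the run of 19 arrays, which holds a single unfed array, the log2 change was 1.41. Breast-fed pups of day 1 gave 303, 253 and 194 and overlapped the formula plus hypoxia pups. The difference between these 2 fed groups did not pass (log2 0.70, limma adjusted p = 0.477).

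The 23 genes of fatty acid oxidation and ketone formation had a median log2 change of 0.14, and 17 of them were positive, where 55.3% of all genes were higher on average in formula plus hypoxia pups. Cpt1a was the only one called. Past an unadjusted p of 0.05 were 4 higher (Cpt1a among them) and 1 lower, against 5.27% and 4.71% of all genes. Acaa2, which carries out the last step of mitochondrial beta-oxidation, changed by 0.63 (adjusted p = 0.269), Cpt2, the inner-membrane partner of Cpt1a, by 0.76 (0.318) and Hadha, a subunit of the trifunctional protein, by 0.57 (0.398). Bdh1, which interconverts ketone bodies, changed by -0.88 (0.364). None of the 15 genes of fat absorption and lipoproteins was called, and their median was 0.21. Plin2, a coat protein of lipid droplets, changed by 0.95 (adjusted p = 0.194) and Dgat1, which completes triglycerides, by 0.76 (0.259).

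The list of gluconeogenesis and fructose handling had no call. Pck1, the rate-limiting enzyme of gluconeogenesis, had a mean signal of 54.6 in formula plus hypoxia pups and 440 in unfed newborns, yet the groups overlapped and the change of -2.34 did not pass (limma adjusted p = 0.322). Of the 12 genes of gluconeogenesis and fructose handling, 4 were higher and 2 lower at an unadjusted p under 0.05, against 9.98% of all genes in either direction. Slc2a5, the fructose transporter, changed by 0.93 (adjusted p = 0.407) and Gpt, alanine aminotransferase, by 1.14 (0.368).

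No gene of the hypoxia response list was called. Among 22 genes of hypoxia response and glycolysis, 0 were called by limma. At an unadjusted p under 0.05, 0 were higher and 4 were lower, against 5.27% and 4.71% of all genes. The median log2 change was 0.05, equal to that of all genes. The 4 lower ones were 3 glycolytic enzymes, Pgk1 (-1.45, adjusted p = 0.361), Eno1 (-0.53, 0.411) and Aldoa (-1.01, 0.424), and P4ha1, a collagen prolyl hydroxylase (-0.76, 0.343). Signals of Pgk1 averaged 742 in formula plus hypoxia pups and 1489 in unfed newborns, with no overlap. Hypoxia was given in episodes, and the time between the last one and death is not in the labels.

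Serpinh1, the chaperone that folds collagen in the endoplasmic reticulum, gave the smallest p of all genes. Its signals were 79.3, 42.8 and 51.6 in formula plus hypoxia pups, against 197, 243, 267 and 265 in unfed newborns. Every unfed array had more than 2 times the signal of the highest formula plus hypoxia array. The decrease was 3.89-fold (2.63 to 5.75; log2 -1.96; limma adjusted p = 0.000578), and the log2 change was -1.64 within the run of 19 arrays (adjusted p = 0.258). Serpinh1 was also lower than in breast-fed pups of day 1, which gave 192, 138 and 153 (2.61-fold, 1.72 to 3.96; adjusted p = 0.0391). That call was lost without formula plus hypoxia replicates 1, 2 or 3 (adjusted p = 0.123, 0.169 and 0.156) and without breast-fed replicates 1, 2 or 3 (0.226, 0.0858 and 0.129). It was also lost with run as a term (0.0608), with the replicate block (0.066), with the deposited scaling (0.138) and within the run of 19 arrays (0.084). A pseudocount of 32 (0.0768), the arrays of the compared groups alone (0.159) and 1 test per probe set (0.0504) lost it too.

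Under continued formula plus hypoxia Serpinh1 gave 57.3, 82.5 and 72.8 on day 2, then 183, 236 and 133 on day 3. It reached 306, 149 and 223 on day 4, and the later days together were 1.21 above day 1 on the log2 scale (limma adjusted p = 0.0101). Of 34 genes of fibroblasts and matrix, Serpinh1 was the only one called, and the median was 0.07. Spp1, a secreted matrix phosphoprotein, was lower without overlap (-1.22, adjusted p = 0.269), and Tcf21, a transcription factor of mesenchymal cells, changed by -1.10 (0.37). Smooth muscle markers summed to 5046 to 7317 in formula plus hypoxia pups and 3917 to 7102 in unfed newborns (exact permutation p = 0.914). In whole tissue, fewer cells of a type and less RNA per cell cannot be told apart.

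No gene of the chaperone list was called. The 23 heat shock and endoplasmic reticulum chaperone genes had a median log2 change of -0.30, and 8 were positive (55.3% of all genes). At an unadjusted p under 0.05, 1 was lower (4.71% of all genes), namely Calr, a calcium-binding chaperone (-0.73, adjusted p = 0.368). Hspa5, the major chaperone of the endoplasmic reticulum, depended on the probe set. Its probe set S63521_i_at gave 32.6, 61.7 and 28.7 in formula plus hypoxia pups, against 89.9, 285, 377 and 195 in unfed newborns, which was 4.63-fold lower (2.62 to 8.16; limma adjusted p = 0.0101 over probe sets). The brighter probe set used for the gene changed by -0.64 (adjusted p = 0.742 over probe sets) and the third, below the filter, by -0.99. The call of S63521_i_at was lost without formula plus hypoxia replicates 1 or 3 (adjusted p = 0.0551 and 0.106), without unfed replicate 3 (0.0774) and with run as a term (0.112). Within the run of 19 arrays its log2 change was -1.04 (adjusted p = 0.785), against -2.21 over all arrays.

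Lcn2 encodes lipocalin, which starves bacteria of iron by binding their siderophores and is made by neutrophils and stressed epithelium. It had the largest rise among the genes, with signals of 823, 229 and 652 in formula plus hypoxia pups, against 187, 42.8, 71.9 and 100.2 in unfed newborns. Formula plus hypoxia replicate 2 was close to unfed replicate 1, and the other arrays were well apart. The increase was 5.27-fold (2.76 to 10.1; log2 2.40; limma adjusted p = 0.0146), and its log2 change was 1.37 within the run of 19 arrays. Its call was lost without formula plus hypoxia replicates 1 or 3 (adjusted p = 0.0964 and 0.115) and without unfed replicate 3 (0.0767).

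Breast-fed pups of day 1 had Lcn2 signals of 114, 195 and 219, all below the formula plus hypoxia arrays, but the difference of 1.51 on the log2 scale did not pass (limma adjusted p = 0.277). Lcn2 remained high later in the regimen, at 273 to 749 on days 2 to 4, with a change from day 1 of -0.01 (adjusted p = 0.994). Breast-fed pups had 112 to 202 on day 2, 168 to 361 on day 3 and 195 to 390.4 on day 4. The 2 regimens overlapped on days 3 and 4 but not on day 2. Of the 13 antimicrobial and acute phase genes, Lcn2 was the only one called, 8 were positive and the median was 0.31. Hp, haptoglobin, was higher without overlap (0.47, adjusted p = 0.421), and Rnase4 changed by -0.57 (0.461).

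Cd59b, a CD59 family protein that stops complement from perforating host cells, gave 919, 989.5 and 1080.2 in formula plus hypoxia pups and 496, 489, 338 and 426 in unfed newborns. The spread within each group was small and the groups were well apart. It was 2.28-fold higher (1.59 to 3.25; limma adjusted p = 0.034). Breast-fed pups of day 1, at 462, 577 and 447, stayed in or near the unfed range, and the difference from them was 1.00 on the log2 scale (adjusted p = 0.135). Leaving out formula plus hypoxia replicates 1, 2 or 3 ended the call (adjusted p = 0.0822, 0.11 and 0.141), as did leaving out unfed replicates 3 or 4 (0.149 and 0.115).

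No gene of the inflammatory mediator list was called on day 1. Of 19 tested, limma called 0. At an unadjusted p under 0.05, 0 were higher and 1 was lower, against 5.27% and 4.71% of all genes. That one was Ccl11, eotaxin, which attracts eosinophils (mean signal 26.8, against 113 in unfed newborns; log2 -1.84; adjusted p = 0.113). Among cytokines and mediators studied in this disease, Il18 gave 669, 1304 and 418 in formula plus hypoxia pups and 971, 1028, 1272 and 746 in unfed newborns, with overlap and a change of -0.46 (adjusted p = 0.698). Il12b changed by 0.55 (0.772), Il10 by -0.13 (0.941), the inducible nitric oxide synthase Nos2 by 0.26 (0.948), the platelet-activating factor receptor Ptafr by -0.30 (0.772) and Casp1, which activates Il18, by -0.36 (0.853).

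Tnf, Pla2g2a, Tlr4 and Egf were below the signal filter. Tnf ranged over 6.53 to 10.9 in formula plus hypoxia pups and 5.83 to 10.5 in unfed newborns, and Tlr4, the receptor for bacterial lipopolysaccharide, over 2.17 to 7.61 in formula plus hypoxia pups and 3.69 to 17.5 in unfed newborns. Pla2g2a, an antibacterial phospholipase of Paneth cells, had 6.27 to 26.4 in formula plus hypoxia pups and 4.95 to 9.62 in unfed newborns. Signals this dim were not tested. Areg, which activates the receptor of epidermal growth factor, changed by 0.35 (adjusted p = 0.849), the mucin Muc2 by 0.27 (0.913), the enterocyte fatty acid binding protein Fabp2 by 0.29 (0.69) and the globin Hbb by 0.11 (0.881).

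Gclm is the modifier subunit of the ligase that carries out the rate-limiting step of glutathione synthesis. It gave 441, 302 and 339.7 in formula plus hypoxia pups, against 192, 180, 211 and 176 in unfed newborns. The unfed arrays were tightly grouped and lay below all formula plus hypoxia arrays. The increase was 1.85-fold (1.39 to 2.45; log2 0.89; limma adjusted p = 0.0465). It is a marginal call: leaving out formula plus hypoxia replicates 1, 2 or 3 gave adjusted p = 0.192, 0.0558 and 0.134, and leaving out unfed replicates 1, 2, 3 or 4 gave 0.0636, 0.0643, 0.103 and 0.205. Breast-fed pups of day 1 gave 282, 296 and 232, between the 2 groups. Formula plus hypoxia did not differ from them at the threshold (log2 0.40, limma adjusted p = 0.62). Against unfed newborns, the other probe sets of Gclm changed by 0.24 and -0.95, and neither passed an unadjusted p of 0.05. The catalytic partner Gclc, at a mean signal of 11.1 in formula plus hypoxia pups and 33 in unfed newborns, changed by -1.12 (adjusted p = 0.356).

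The list of 29 antioxidant and glutathione enzymes had a median log2 change of 0.16 with 18 positive (55.3% of all genes). Gclm was its only called member. At an unadjusted p under 0.05, 4 members were higher, Gclm included, and 2 lower, against 5.27% and 4.71% of all genes. Ephx1, a microsomal epoxide hydrolase, changed by 0.95 (adjusted p = 0.487) and Gsta1, a glutathione transferase, by 0.92 (0.48), both without overlap. Cytochrome P450 and conjugating enzymes had 0 of 12 called by limma, 0 at an unadjusted p under 0.05 and a median of 0.28. Probe sets without a gene symbol, E00717UTR#1_s_at among them, could not be counted in this or any other list.

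The remaining called genes act in signalling, proteolysis and chromatin. Capn3 is a calcium-dependent protease known mainly from skeletal muscle. Its signals were 1294, 2452 and 2209.9 in formula plus hypoxia pups, against 831, 666, 756 and 971 in unfed newborns. The increase was 2.38-fold (1.66 to 3.43; limma adjusted p = 0.0297), and its other probe sets rose by 0.76 and 1.05 on the log2 scale. Its call was lost without formula plus hypoxia replicates 2 or 3 (adjusted p = 0.144 and 0.134) and without unfed replicate 3 (0.101). Breast-fed pups of day 1 gave 773, 1228 and 1484 and overlapped the formula plus hypoxia pups (log2 0.77, limma adjusted p = 0.364). On days 2, 3 and 4 Capn3 averaged 1772, 1512 and 822 under formula plus hypoxia, and 1150.4, 1803 and 1565 in breast-fed pups.

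Cgref1 encodes a secreted calcium-binding protein named for its effect on cell growth. It gave 315, 204 and 246 in formula plus hypoxia pups and 84, 127, 103 and 98.7 in unfed newborns, an increase of 2.35-fold (1.63 to 3.38; limma adjusted p = 0.0306). With run as a term its adjusted p was 0.025. Its signals in breast-fed pups of day 1 were 80.7, 130.1 and 138, all of them below the formula plus hypoxia arrays, though the difference of 1.09 did not pass (adjusted p = 0.11). It stayed high on day 2 of the regimen, at 176, 257 and 271, and was 53.6 to 117 on days 3 and 4. The later days together differed from day 1 by -0.96 on the log2 scale (adjusted p = 0.018). Its call against unfed was lost without formula plus hypoxia replicates 1 or 3 (0.129 and 0.115) and without unfed replicates 1, 3 or 4 (0.0603, 0.101 and 0.112).

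Plcg2, a phospholipase C that transmits signals from immune receptors, gave 86.5, 108 and 79.9 in formula plus hypoxia pups and 36.1, 57.5, 42.7 and 32 in unfed newborns (2.01-fold, 1.45 to 2.79; limma adjusted p = 0.0497). The breast-fed arrays of day 1 gave 82.9, 68.5 and 84.8, and the 2 fed groups differed by 0.19 on the log2 scale (adjusted p = 0.858). The call was lost without formula plus hypoxia replicates 1, 2 or 3 (0.105, 0.229 and 0.127) and without unfed replicates 1, 3 or 4 (0.0923, 0.149 and 0.206).

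Cbx5 is a heterochromatin protein that helps keep genes silent. Its signals were 3.36, 8.88 and 3.77 in formula plus hypoxia pups, against 43.7, 21.2, 48.6 and 64.2 in unfed newborns. The formula plus hypoxia signals are near the bottom of the scale, so the size of the change depends on the pseudocount. It was 3.80-fold (2.47 to 5.84; log2 -1.93; limma adjusted p = 0.00176) with a pseudocount of 8, and the log2 change was -2.64 with 2 and -1.01 with 32. In breast-fed pups of day 1 Cbx5 gave 26.1, 31.8 and 30.2, and formula plus hypoxia was 2.84-fold lower than those (1.80 to 4.5; adjusted p = 0.0391). That call was lost without formula plus hypoxia replicates 1, 2 or 3 (adjusted p = 0.203, 0.0621 and 0.156), without breast-fed replicates 1, 2 or 3 (0.102, 0.136 and 0.15), with run as a term (0.0857) and with a pseudocount of 32 (0.131). On days 2 to 4 of the regimen the signals were 13.9 to 31.1, above day 1 by 1.22 on the log2 scale (adjusted p = 0.0135).

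Ivns1abp, a kelch-family protein that binds actin, gave 51.6, 80.1 and 33.3 in formula plus hypoxia pups and 94.9, 232, 203 and 135 in unfed newborns (2.75-fold lower, 1.75 to 4.31; limma adjusted p = 0.039). Within the run of 19 arrays its change was -0.76 on the log2 scale, against -1.46 over all arrays. Its call was lost without formula plus hypoxia replicates 1 or 3 (0.104 and 0.359) and without unfed replicates 2, 3 or 4 (0.0781, 0.149 and 0.102). Pde6d, which shuttles prenylated proteins between membranes, gave 34.9, 11 and 11.6 in formula plus hypoxia pups and 49.4, 48.9, 62.6 and 89.3 in unfed newborns (2.73-fold lower, 1.70 to 4.39; adjusted p = 0.0497). Pde6d lost its call without formula plus hypoxia replicates 2 or 3 (0.229 and 0.398) and without unfed replicates 1, 3 or 4 (0.0574, 0.151 and 0.224).

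The promoters of 4 called genes are shown because their products meet in the pathways above: lipid synthesis for Scd2 and Fdps, collagen folding for Serpinh1 and glutathione synthesis for Gclm. Each runs from 250 bases before to 50 after the gene's start in RefSeq on the GRCr8 build, on the gene's strand: chr1:253118127-253118426 (plus strand), chr2:176804767-176805066 (minus strand), chr1:163062927-163063226 (minus strand) and chr2:213031885-213032184 (plus strand). Capitals mark matches on either strand to CCAAT, to the antioxidant response core TGACNNNGC and to the heat shock repeat GAANNTTC, motifs chosen after the values were seen.
Scd2: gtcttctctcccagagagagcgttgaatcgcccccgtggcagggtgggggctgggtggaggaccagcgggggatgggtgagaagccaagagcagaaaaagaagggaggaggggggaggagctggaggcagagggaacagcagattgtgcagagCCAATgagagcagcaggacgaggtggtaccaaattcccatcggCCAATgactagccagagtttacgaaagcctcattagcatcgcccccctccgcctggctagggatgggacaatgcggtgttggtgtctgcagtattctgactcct
Fdps: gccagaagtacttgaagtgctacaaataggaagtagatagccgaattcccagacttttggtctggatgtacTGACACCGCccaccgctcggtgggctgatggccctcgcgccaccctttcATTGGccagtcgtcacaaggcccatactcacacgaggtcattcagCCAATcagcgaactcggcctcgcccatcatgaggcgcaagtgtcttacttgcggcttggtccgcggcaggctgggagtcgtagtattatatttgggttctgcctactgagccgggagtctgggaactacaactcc
Serpinh1: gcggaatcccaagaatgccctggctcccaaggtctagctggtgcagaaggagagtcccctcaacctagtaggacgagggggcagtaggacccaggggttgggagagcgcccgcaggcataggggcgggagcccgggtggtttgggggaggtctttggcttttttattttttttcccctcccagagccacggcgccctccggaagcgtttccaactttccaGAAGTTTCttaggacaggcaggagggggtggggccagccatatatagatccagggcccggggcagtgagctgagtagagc
Gclm: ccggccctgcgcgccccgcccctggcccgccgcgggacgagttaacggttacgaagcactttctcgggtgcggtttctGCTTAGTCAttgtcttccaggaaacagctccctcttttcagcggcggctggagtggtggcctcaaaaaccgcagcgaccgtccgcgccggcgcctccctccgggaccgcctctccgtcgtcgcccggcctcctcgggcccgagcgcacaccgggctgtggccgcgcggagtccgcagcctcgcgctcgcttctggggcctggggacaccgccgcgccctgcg

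RefSeq promoters were matched for 11 of the 13 called genes. CCAAT was found in Scd2 and Fdps, with 2 matches in each, and in none of the other 9, while 37.5% of all 33469 promoters hold it. TGACNNNGC was found in Plcg2, Gclm and Fdps, and in 12.1% of all promoters. GAANNTTC was found in Plcg2 and Serpinh1, and in 8.59% of all promoters. These are matches of letters in a window and describe no binding.

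Breast-fed pups of day 1 share age with the formula plus hypoxia pups, so the comparison of those 2 groups leaves out the day of life. It is also the test of whether the change from the unfed state differed between the regimens, since the unfed arrays cancel. Of 3185 genes, 9 differed (0.283%), 2 higher and 7 lower under formula plus hypoxia, and 291 (9.14%) passed an unadjusted p of 0.05. Serpinh1 and Cbx5 are the 2 of these that were also called against unfed, where 0.408% of all genes were called. Both comparisons use the same formula plus hypoxia arrays, so the shared calls are not independent of each other. Limma called 0 genes (0%) between breast-fed pups of day 1 and unfed newborns, with 186 (5.84%) at an unadjusted p under 0.05. That comparison shares the unfed arrays with the one above.

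Muc3, a membrane mucin of the enterocyte surface, gave 1257, 1363 and 1261 in formula plus hypoxia pups, against 384, 285 and 154 in breast-fed pups of day 1 (4.91-fold, 2.61 to 9.24; limma adjusted p = 0.0348). Unfed newborns had 702, 741, 335 and 284, below every formula plus hypoxia array, but that difference was not called (log2 1.44, adjusted p = 0.181). Efna1, an ephrin ligand, gave 313, 316 and 279.8 in formula plus hypoxia pups and 143, 97 and 122 in breast-fed pups (2.44-fold, 1.66 to 3.59; adjusted p = 0.0391), with unfed newborns at 180.3 to 377. These and the other genes of this paragraph and the next one were picked because they passed this comparison.

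Vch, a chymase, had the largest decrease of the 7, at 42.8, 123 and 29.8 in formula plus hypoxia pups, against 286, 297 and 549.7 in breast-fed pups (5.84-fold lower, 2.80 to 12.2; limma adjusted p = 0.0348). Unfed newborns had 129.9 to 334, above all formula plus hypoxia arrays. Mmp10, a matrix metalloproteinase, gave 43.7, 56.6 and 61.3 in formula plus hypoxia pups and 168, 176 and 185 in breast-fed pups, with little spread (3.00-fold lower, adjusted p = 0.0348). Arsb, a lysosomal sulfatase, was 2.64-fold lower (adjusted p = 0.0348), the granzyme inhibitor Serpinb9 3.69-fold lower (0.0462) and Cd24, a glycoprotein of epithelial progenitors, 1.91-fold lower (0.0462). Mmp10, Arsb, Serpinb9 and Cd24 were not called against unfed newborns (log2 -0.41, -1.01, -1.08 and -0.14; limma adjusted p = 0.681, 0.113, 0.334 and 0.868). In breast-fed pups the same genes were above unfed newborns by 1.175, 0.388, 0.805 and 0.791 on the log2 scale, none of them called. The count of 9 was 0, 3 and 0 without formula plus hypoxia replicates 1, 2 and 3, and 0, 1 and 1 without breast-fed replicates 1, 2 and 3. It was 6 within the run of 19 arrays, but only 3 of those 6 were among the 9, and it was 0 with run as a term.

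**Figure D3:**
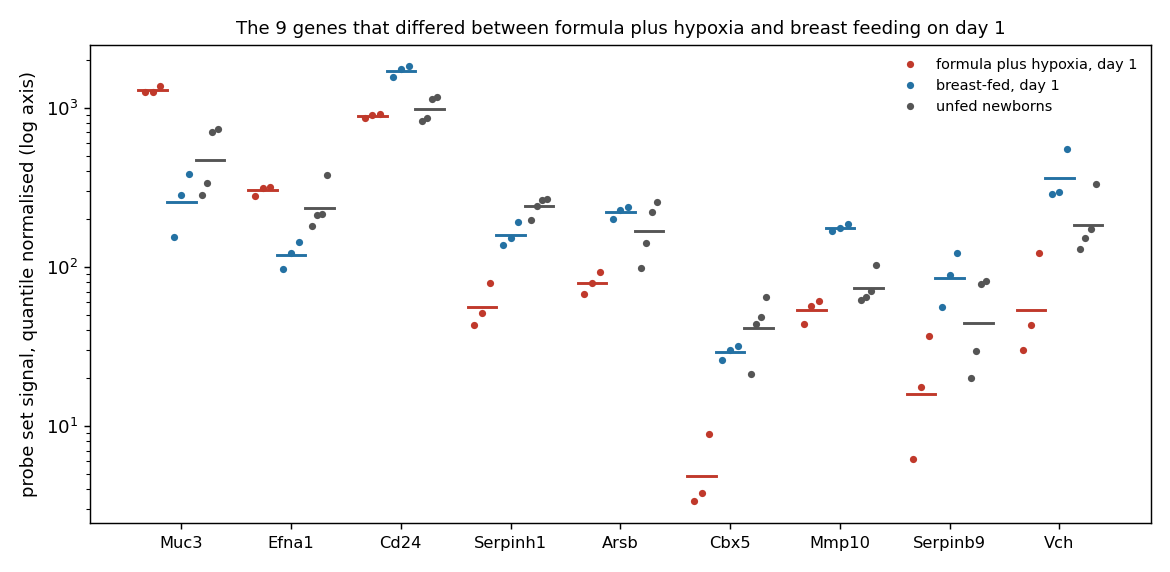
Probe set signal (log axis) of the 9 genes that differed between formula plus hypoxia and breast feeding on day 1, with formula plus hypoxia in red (left), breast-fed in blue (middle) and unfed newborns in grey (right), 1 dot per array and bars at geometric means. For Muc3 and Efna1 the red dots lie above the blue ones and for the other 7 genes below them, and for Serpinh1, Cd24, Mmp10 and Efna1 the breast-fed arrays overlap neither of the other groups.

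Mast cell genes had the lowest median of the 38 lists. Their median log2 change against unfed was -0.43, and 3 of 10 were positive (55.3% of all genes). Without overlap, 1 was higher and 1 lower (4.71% and 3.05% of all genes). Of the 10, 0 were called and 3 were lower at an unadjusted p under 0.05 (4.71% of all genes). These were Mcpt4 (mean signal 14.7 in formula plus hypoxia pups and 58.8 in unfed newborns; log2 -1.62; limma adjusted p = 0.141), Vch (-1.60, 0.2) and Cpa3 (-0.93, 0.435), all of them proteases. Enteroendocrine genes had a median of -0.28 with 2 of 10 positive, although Isl1, a transcription factor of hormone-making cells, was higher without overlap (1.02, adjusted p = 0.181).

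Among macrophage and granulocyte genes, Lgals3, a galectin that intestinal epithelium also makes, was higher without overlap (1.39, limma adjusted p = 0.168), and the median of the 12 was -0.03. Lysosomal genes with the neonatal Fc receptor had a median of 0.29, 15 of 19 positive (55.3% of all genes) and 0 called. The acid lipase Lipa changed by 0.96 (adjusted p = 0.299). Slc9a3, the sodium-proton exchanger of the brush border, changed by 1.23 without overlap (0.24), and Klf10, an early-response transcription factor, by 0.91 without overlap (0.113). Brush border genes (17), junction genes (13), oxidative phosphorylation (34) and ribosomal proteins (37) had medians of 0.01, 0.11, -0.06 and 0.05, with 0 called in each by limma and 0 at an unadjusted p under 0.05 in each.

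**Figure D4:**
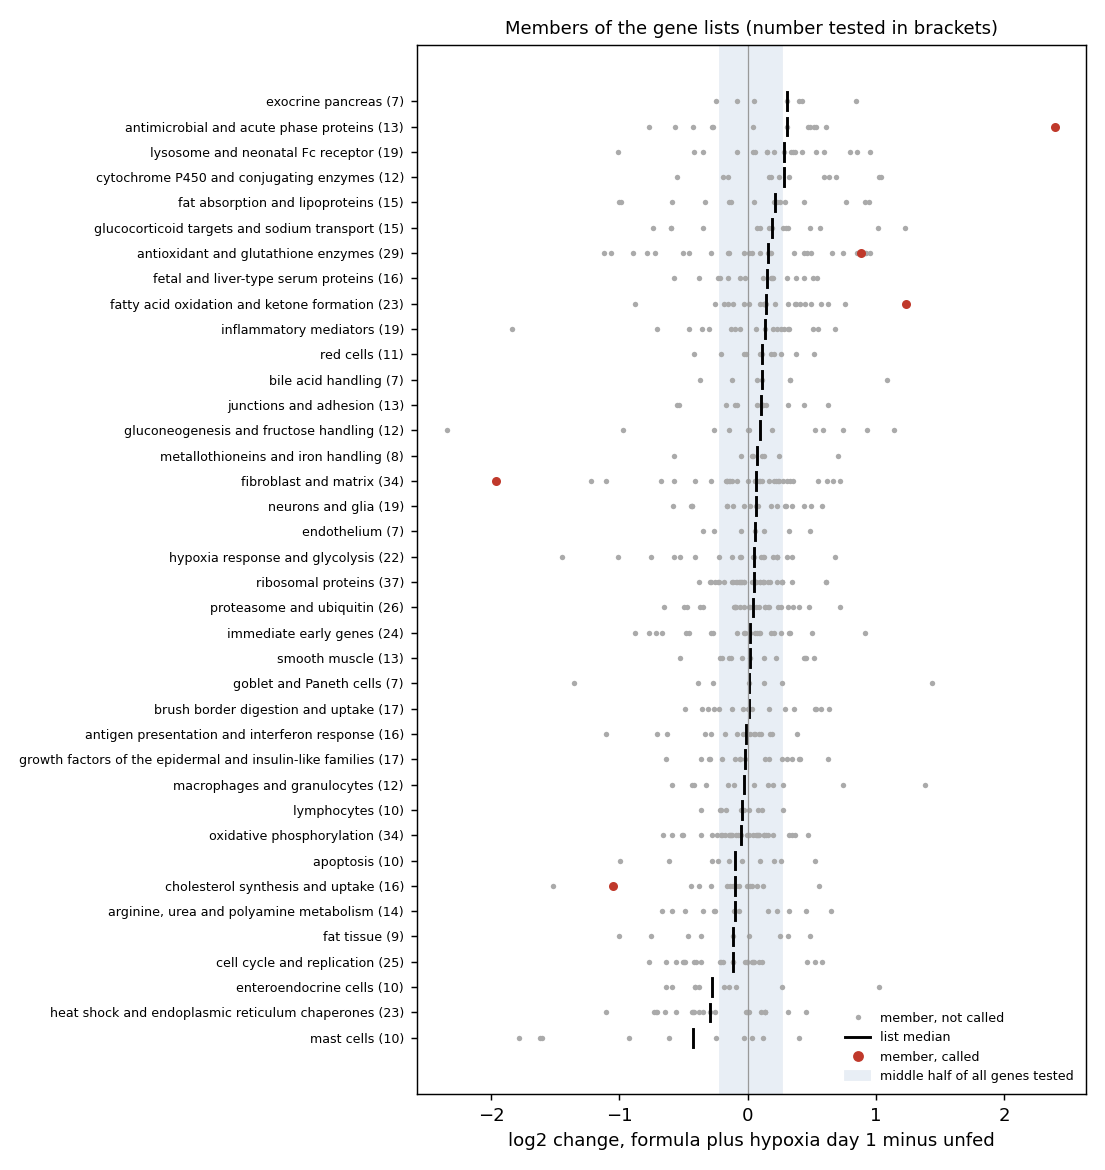
Log2 change of formula plus hypoxia on day 1 minus unfed for the tested members of 38 gene lists (grey dots, not called; red dots, called), with list medians as black bars and the middle part of all tested genes shaded from -0.22 to 0.27. List medians range from -0.43 for mast cells to 0.31 for exocrine pancreas, and 5 red dots (Lcn2, Cpt1a, Gclm, Fdps and Serpinh1) stand in separate lists.

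Summed signals of the markers of ileal and other cells overlapped between the groups. Among the markers past the filter, Hpx, a heme-binding protein of the liver list, was the only one without overlap, at 43.7 to 62.1 in formula plus hypoxia pups and 34.4 to 37.8 in unfed newborns (log2 0.44, not called). Summed signals were 15216 to 18679 in formula plus hypoxia pups and 12270.1 to 27278 in unfed newborns for ileal enterocytes (exact permutation p = 0.914), and 16813 to 19397 against 16182 to 19024 for red cells (exact p = 0.514). Of the exocrine pancreas markers 3 of 8 passed the filter, with sums of 617 to 1423 in formula plus hypoxia pups and 489 to 1347 in unfed newborns (exact p = 0.914). Of the liver markers 3 of 7 passed, with sums of 805 to 894 in formula plus hypoxia pups and 571 to 906 in unfed newborns (exact p = 0.229). Stomach markers, with 2 of the 5 on the array past the filter, summed to 114 to 174 in formula plus hypoxia pups and 78.9 to 149.8 in unfed newborns (exact p = 0.114). With 3 arrays against 4, the smallest p this test can give is 0.0571. The part of cell mixture in the changes of single genes was not tested.

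The called genes were followed into the later days of the regimen. The mean of days 2 to 4 of formula plus hypoxia differed from day 1 in 156 genes (4.90%), 85 higher and 71 lower. Both comparisons use the day 1 arrays, and the later one sets 9 further arrays against them, with a median standard error of 0.26. Areg and Muc2, which were not called on day 1 against unfed, were both higher in the mean of the later days than on day 1 (1.30, limma adjusted p = 0.0427, and 1.57, adjusted p = 0.0306). The days differed, since Muc2 averaged 214 on day 1, 203 on day 2, 1099 on day 3 and 1517 on day 4, and Areg 67.4, 91, 341 and 219 on the same days. Of the 13 genes called on day 1, Serpinh1, Cbx5 and Cgref1 were called again in this comparison, each in the direction opposite to its change from unfed. The other 10 were not called in it, with log2 changes from -0.58 for Capn3 to 0.64 for Pde6d. In breast-fed pups Muc2 averaged 711, 1139, 1166 and 1462 on days 1, 2, 3 and 4, and Areg 28, 26.1, 58.4 and 67.7. On day 1 every formula plus hypoxia array was below every breast-fed array for Muc2, though the difference did not pass (log2 -1.57, limma adjusted p = 0.272).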

How the data were processed

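The deposited values were intensities of probe sets on a linear scale, which the authors had scaled, from the values, to a common trimmed mean of about 150.4 on these 7 arrays. Software and background correction are not stated in the labels. Intensities of all 28 arrays were quantile normalised, a pseudocount of 8 was added and log2 was taken. Probe sets whose mean was above the 40th percentile (signal 24) were kept, and the brightest with 1 symbol stood for each gene. limma 3.58.1 in R 4.3.3 fitted 1 mean per group over the 28 arrays with an intensity trend (19 residual degrees of freedom), and p-values were adjusted by Benjamini-Hochberg over all genes tested. Intervals are 95%. Fold changes are on the log2(signal + 8) scale and understate changes of dim genes. Exact permutation tests (35 arrangements, two-sided) compared single sums. The fit was tested on simulated data. The members, gene lists and rules were chosen with earlier results of these data known. Genes were named when called without overlap, when called against breast feeding too, or for their part in the disease model, and those named for an unadjusted p or for the breast-fed comparison alone were chosen after their values were seen. The number of arrays limits the precision. The alternatives were scaling, pseudocount, filter, probe-set tests, array weights, replicate block, run, trend and leaving out arrays.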

Additional observations from a re-analysis of the deposited data

Results flagged for a closer look

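Serpinh1 and Cbx5 changed from the unfed state by different amounts under the 2 regimens of day 1. Both were also called against unfed with the same formula plus hypoxia arrays, so the 2 comparisons are not independent. The change under formula plus hypoxia minus that under breast feeding was -1.38 on the log2 scale for Serpinh1 and -1.51 for Cbx5 (limma, adjusted p = 0.0391 for both). The fall of both was larger under formula plus hypoxia, and the arrays of the 2 regimens did not overlap. Both calls were lost without any 1 of the 6 arrays (adjusted p = 0.0858 to 0.226 for Serpinh1 and 0.0621 to 0.203 for Cbx5) and with accession run as a term (0.0608 and 0.0857). Among 23 genes examined for a single unfed array far from the others, where chance gives about 1 in 20, only Muc2 had one: unfed replicate 2 gave a signal of 73.4, against 211 to 258 in the other 3, a gap of 0.838 of the group's range on the log2 scale.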

How the results depend on the processing

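The unnamed probe set E00717UTR#1_s_at kept its direction and its call in all alternatives run for it, with log2 changes of 2.43 to 3.03. Scd2 and Serpinh1 kept their calls without each single array, as did Cbx5 except without unfed replicate 4. There, within the run of 19 arrays, with the filter at the 60th percentile, without the 2 breast-fed arrays that lost probe sets and with the arrays of the compared groups alone, Cbx5 was below the filter. The count of 13 genes was 6 with the deposited scaling, 4 with a common median, 92 with array weights, 5 with the replicate block, 4 with accession run as a term, 0 within the run of 19 arrays (196 at an unadjusted p under 0.05), 8 without the 2 breast-fed arrays that lost probe sets, 2 with the arrays of the compared groups alone, and 3 to 18 when single arrays were left out. It was 8 without formula plus hypoxia replicate 2 and unfed replicate 2 together, an alternative chosen after seeing the data. The count of 9 against breast feeding was 5 with the deposited scaling (3 of them among the 9), 58 with array weights and 5 with the replicate block. It was 0 with run as a term, 4 with the arrays of the compared groups alone (2 of them among the 9) and 0 to 3 when single arrays were left out. The causes were not tested, and other counts stayed within 1.5 times. Same-numbered arrays of formula plus hypoxia and unfed pups had correlations of -0.01, -0.19 and -0.19 in their deviations. Between formula plus hypoxia and breast-fed pups of day 1 these were -0.06, 0.09 and -0.08. So few values cannot settle whether the numbers pair the pups, and the main fit used no pairing. Log2 changes of some uncalled genes turned sign. Il10 was 0.0373 with the deposited scaling, 0.204 with array weights, -0.378 to 0.33 without single arrays (0.33 without formula plus hypoxia replicate 2 and 0.0481 without unfed replicate 1) and 0.248 without both replicates 2. Muc2 was -0.124 with array weights, -0.00834 within the run of 19 arrays, -0.114 (without unfed replicate 2) to 0.488 without single arrays and -0.231 without both. Within that run Il12b was -0.181, Nos2 -0.717 and Hbb -0.107. Nos2 was -0.122 (without unfed replicate 2) to 0.592 without single arrays and -0.288 without both. Areg was -0.00793 (without unfed replicate 2) to 0.696 without single arrays and -0.0807 without both. Casp1 reached 0.059 without formula plus hypoxia replicate 3 and was -0.856 without both replicates 2. Dim genes such as Cbx5 have changes whose size is set by the pseudocount.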
